A study of Mus musculus with 10 samples.

Results

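Integrins and the proteins that tie them to actin were followed through RNA sequencing of 2 mouse tumour lines, as 37 genes picked by name: 19 integrin subunits (12 alpha and 7 beta) and 18 intracellular adhesion proteins. All 37 were found by Ensembl identifier among the 60676 rows of the count table. The lines were MC38, a colon carcinoma line, and B16, a melanoma line. Every library came from cells in which syndecan-1 (Sdc1) had been knocked down and which were stimulated for 24 h with IFNγ (interferon gamma), 10 ng/ml. MC38 gave 3 groups of 2 libraries: the knockdown alone, the knockdown with a mutant Sdc1 called c30, and the knockdown with a mutant called ect. B16 gave 2 groups of 2, its own knockdown with and without wild-type Sdc1 added back. The labels name c30 and ect without describing them and do not say whether the cells were clones or pools. Neither untreated cells nor cells with their Sdc1 intact are part of these groups.

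An integrin is a pair of membrane-spanning chains, 1 alpha and 1 beta, and the pair sets what the cell holds on to. Collagens, laminins, fibronectin and cell-surface partners are each bound by different pairs. Inside the cell, talins and kindlins switch integrins on, and a layer of adaptors, among them focal adhesion kinase, paxillin, vinculin, zyxin and the tensins, carries force and signals to actin. Syndecan-1 is a heparan sulphate proteoglycan that works beside integrins at the matrix, and its outer part is known to join integrins that hold the Itgav chain and the receptor encoded by Igf1r in carcinoma cells.

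Library totals ran from 11349447 to 15041133 counts. Levels are CPM, counts per 1000000 counts of the library, and a count of 0 was kept as 0. A level of 3 counts, taken as the floor when low values are read, came to between 0.199 and 0.264 CPM. Sdc1 stood at 24.5 and 29.99 CPM in the MC38 knockdown, 97.0 and 99.5 CPM with c30, 22.4 and 25.2 CPM with ect, 40.7 and 43.1 CPM in the B16 knockdown, and 71.1 and 56.9 CPM with the wild-type form. The ect libraries thus held no more Sdc1 counts than the knockdown, and a count per gene may miss part of an altered transcript. Melanocyte markers summed to 13692 to 14506 CPM over 8 genes in B16 and to 6.33 to 12.9 CPM in MC38, where Slc45a2 was at 0 in all libraries. Of 8 epithelial markers, 1 or 2 reached 1 CPM in an MC38 library and 0 in a B16 library, so the epithelial origin of MC38 was hardly visible in these genes. Leukocyte markers summed to at most 13.1 CPM in any library. Of the 8 listed, 2 reached 1 CPM in MC38 libraries and 1 in B16 libraries. Cd68 was at 5.85 to 7.23 CPM in MC38 and 6.31 to 7.92 CPM in B16. Itgb2 was at 4.22 to 5.27 CPM in MC38, and Cd3e was at 0 throughout. Whether the pair of libraries in a group stems from separate cultures is not in the labels, and p-values therefore reflect the spread of those libraries alone, possibly a technical one.

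Most of the family was transcribed. In MC38, 12 of the 19 integrin subunits and 15 of the 18 adhesion proteins reached 1 CPM in all 6 libraries. In B16, 15 subunits and 15 adhesion proteins did so in all 4. Itga11, Itgb6, Ilk and Fermt1, the last encoding a kindlin of epithelia, stayed under 1 CPM in both lines.

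**Figure D1:**
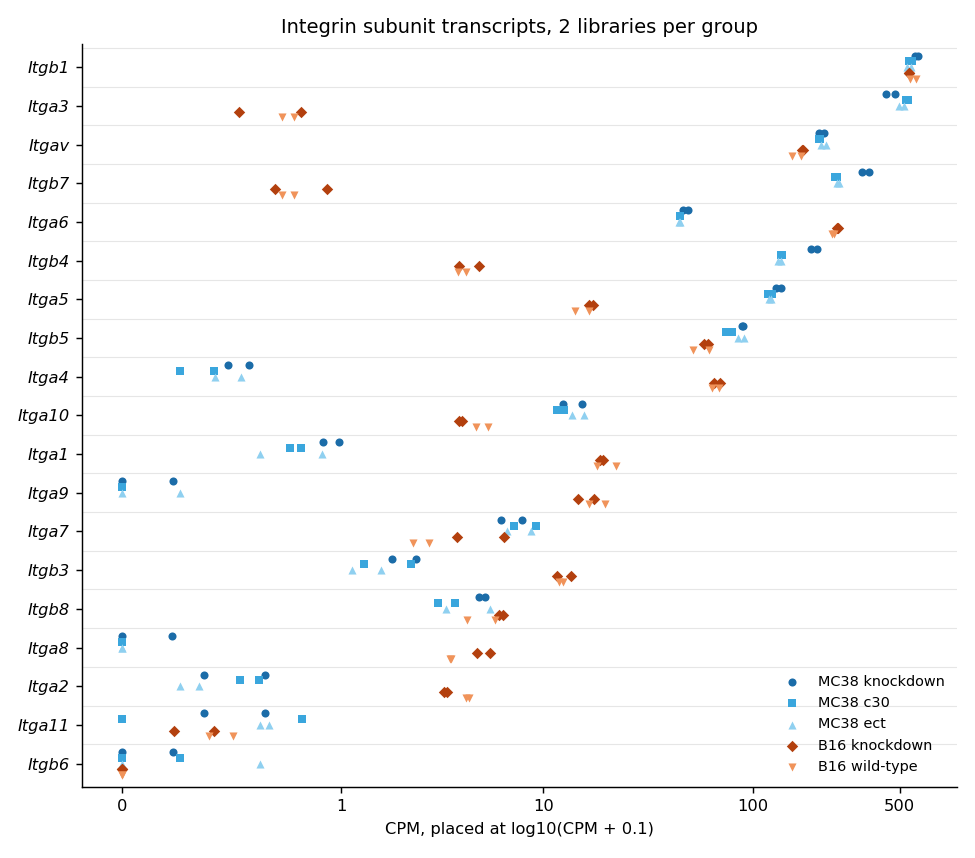
Levels of the 19 integrin subunit genes in each of the 10 libraries, with CPM placed on a scale of log10(CPM + 0.1) and colours and symbols marking the 5 groups. Itgb1 sits between 543 and 609 CPM in all 10 libraries, while Itga3 and Itgb7 are high in MC38 alone and Itga4 and Itga9 in B16 alone.

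A different repertoire of chains was carried by each line. Because long transcripts collect more counts, genes were ranked against each other by CPM per kilobase of exon, a level and not a difference. The length is that of all annotated exon bases of a gene together and can exceed that of the transcript made. The order and the shares below depend on it, and the ranges carry the spread of libraries alone. In MC38 the order among subunits was Itgb1 (median 139.7 CPM per kilobase), Itgb7 (92.2), Itga3 (89.4), Itga5 (24.9), Itgb5 (24.5), Itgav (19.5) and Itgb4 (19.5). The library ranges of Itgb7 and Itga3 overlapped, as did those of Itga5 and Itgb5, and that of Itgb4 (18.9 to 28.9) overlapped those of Itga5, Itgb5 and Itgav. These medians pool 3 groups, and in the knockdown alone Itgb4 (mean 27.9) stood above Itgb5 (25.1) and, with overlapping libraries, Itga5 (26.8). In B16 the order was Itgb1 (136), Itga6 (27.4), Itgb5 (16.8), Itgav (15.9) and Itga4 (4.80), and the ranges of Itgb5 and Itgav overlapped. Itgb1, which encodes the beta chain that pairs with most alpha chains, was first in both lines. It made up 86.7 to 89.1% of the summed beta-chain level per kilobase in B16 and 44.0 to 51.6% in MC38, where Itgb7 took another 32.8 to 39.3%. Among alpha chains, Itga3 took 57.8 to 65.1% in MC38, and Itga6 took 47.1 to 49.1% in B16.

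**Figure D2:**
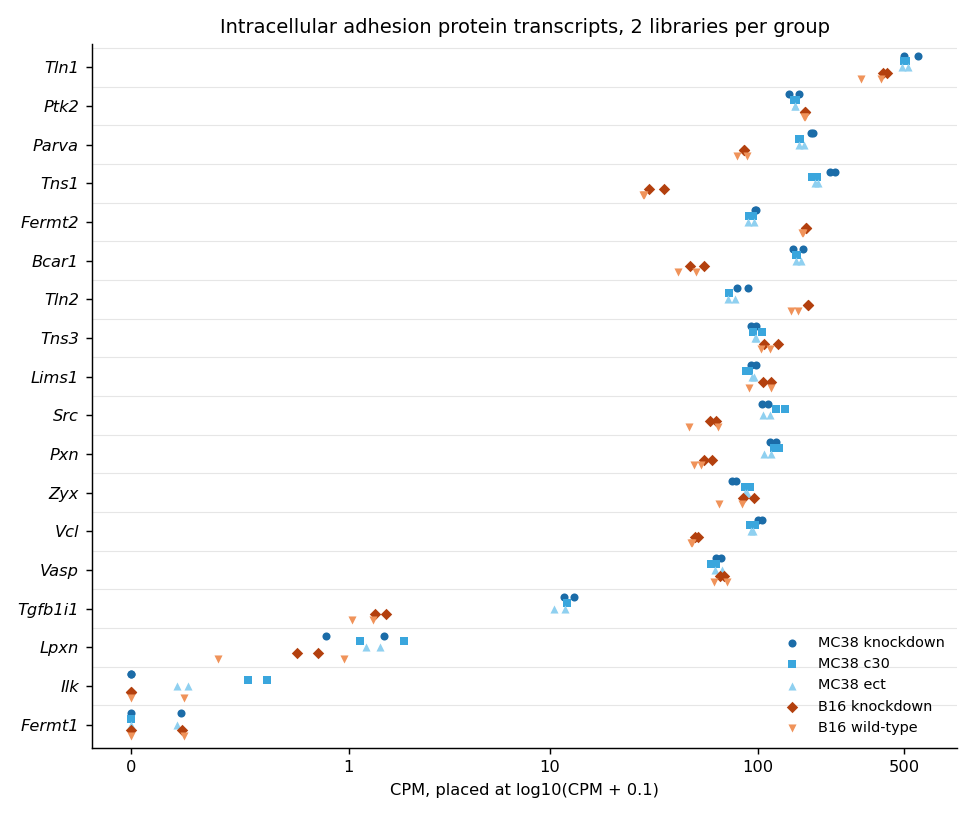
Levels of the 18 intracellular adhesion protein genes in each library, on the same log10(CPM + 0.1) scale. Tln1 is the highest in each library, Tns1 lies far lower in B16 than in MC38, and Ilk and Fermt1 lie at or near 0 in every group.

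Among intracellular adhesion proteins, Tln1, which encodes the main talin, led per kilobase in both lines, at a median of 51.5 CPM per kilobase in MC38 and 39.9 in B16. Fermt2, which encodes the broadly expressed kindlin, was at 18.4 and 32.1, and Vasp, which encodes an actin-elongating protein, at 24.1 and 25.7. Ilk encodes a pseudokinase that binds Parva and Lims1 products at adhesions, and it held only 0 to 4 counts in any library. Of its exon bases, 89.7% are shared with other genes in the GENCODE vM21 annotation, 76.8% with Taf10 on the opposite strand. Taf10 held 296 to 560 counts. The sources used here do not say how reads over shared exons were counted, so the Ilk value is not read as a level of the gene. Shared exon bases came to 33.5% for Itga10, 25.5% for Vcl and at most 8.04% for every other member. Vcl shares them with Ap3m1 on the opposite strand, which held 1079 to 1419 counts in MC38 and 1172 to 1443 in B16. Itga10 shares them with Gm42957 on the same strand, which held 0 to 2 counts in MC38 and 0 in B16. All values of Vcl and Itga10 are read with that limit.

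Setting both knockdown groups side by side compares the lines themselves. The widest gaps were in integrin subunits that only 1 of the lines transcribed above 1 CPM. Tested were 33 members that passed the filter on low counts, and 28 were called at an edgeR adjusted p under 0.05, 13 higher in B16 and 15 lower. Among all 16877 genes tested 68.2% were called, 33.8% higher and 34.3% lower, so a call by itself says little here and the sizes carry the result. Of the 17 subunits tested, 7 were at least 2-fold higher in B16 and 5 at least 2-fold lower, whereas among 16 adhesion proteins 1 was and 5 were, beside 17.6% and 19.6% of all genes tested. The median absolute log2 fold change was 2.93 for tested subunits, 0.85 for tested adhesion proteins and 0.72 for all genes. Of those subunits 7 stayed under 1 CPM in every library of 1 line and passed the filter only through the other, so they had to differ. Of the other 10 subunits, 2 were at least 2-fold higher in B16 and 3 at least 2-fold lower, and their median was 1.15. Of the 15 adhesion proteins not under 1 CPM in a line, 1 was higher and 5 were lower by that rule, with a median of 0.84. The shares and the median over all genes had no such removal.

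**Figure D3:**
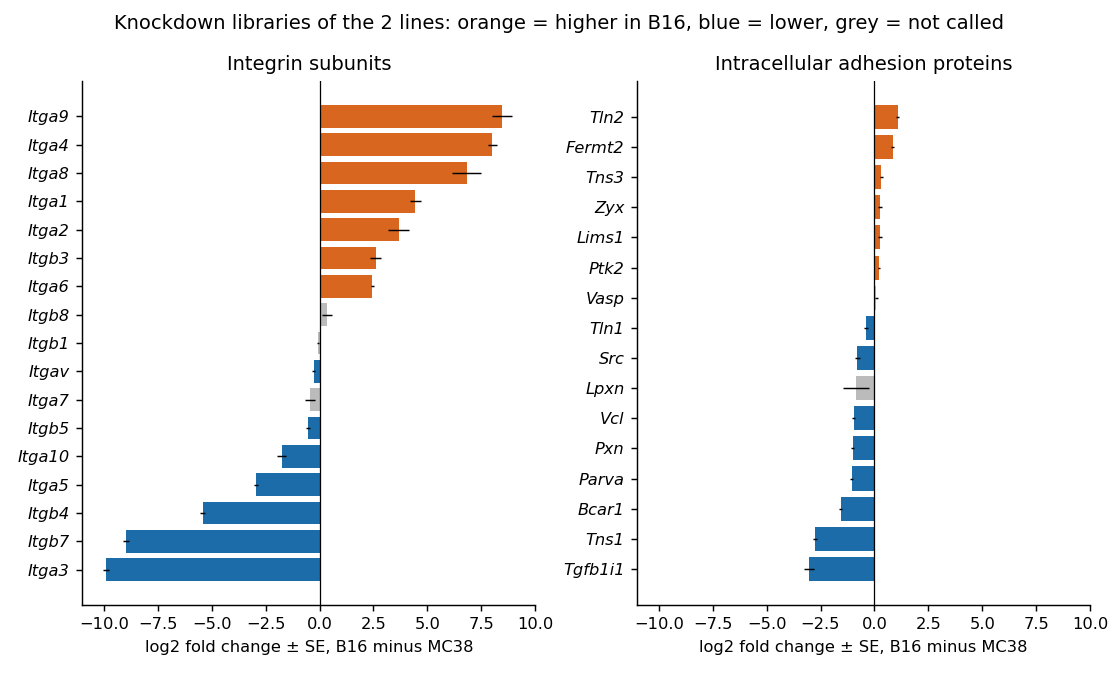
Log2 fold change of each tested member between the knockdown libraries (B16 minus MC38; bars, with SE as lines), subunits on the left and adhesion proteins on the right on equal axes. Subunits span -9.91 to 8.46, adhesion proteins -3.03 to 1.08, and grey bars were not called; the fitted values of Itga8 and Itga9 rest on 1 count in MC38 and depend on the prior count.

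Chains high in MC38 were led by Itga3, which encodes a laminin-binding alpha chain. Itga3 stood at 429 and 475 CPM in the MC38 knockdown and at 0.611 and 0.261 CPM in the B16 knockdown (log2 fold change -9.91, SE 0.15, edgeR adjusted p = 4.50e-28). Itgb7, whose chain is best known from gut-homing lymphocytes, was at 329 and 358 CPM in MC38 and at 0.840 and 0.435 CPM in B16 (-8.98, SE 0.14, edgeR adjusted p = 9.39e-28). Neither gene overlapped between the lines in any of the 10 libraries, and the B16 values were near the floor. Both genes passed the filter only through MC38 and so had to differ, and their p-values add no support. Itgb4, which encodes the beta chain of hemidesmosomes, went from 188 and 202 CPM in MC38 to 4.89 and 3.92 CPM in B16 (-5.42, SE 0.11, edgeR adjusted p = 2.17e-25), a 42.8-fold lower level. Itga5, which encodes the main fibronectin-binding alpha chain, was 7.63-fold lower in B16 (16.5 and 17.2 against 128 and 136 CPM, edgeR adjusted p = 4.59e-21). Itga10, which encodes a collagen-binding chain, was also lower in B16 (4.05 and 3.92 against 15.3 and 12.4 CPM). Fewer cells with a transcript and less of it per cell cannot be told apart in such bulk libraries.

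Chains high in B16 included Itga4 and Itga9, close relatives whose products bind Vcam1 and osteopontin among other ligands. Itga4 stood at 69.9 and 65.01 CPM in the B16 knockdown and at 0.218 and 0.301 CPM in MC38 (log2 fold change 8.01, SE 0.22, edgeR adjusted p = 3.36e-22). Of its exon bases 8.04% are shared with Cerkl on the opposite strand, which held 51 to 67 counts in the B16 libraries and 0 or 1 in MC38. Itga9 had 398 counts over both B16 knockdown libraries and 1 over both MC38 knockdown libraries, a ratio of 438 after division by library totals (95% exact Poisson interval 78.1 to 17337, counting error only). For Itga8, whose chain binds nephronectin in the kidney, the counts were 127 and 1 (ratio 139.7, interval 24.6 to 5561). Itga6, a laminin-binding chain, was 5.48-fold higher in B16 (252 and 255 against 48.9 and 46.3 CPM, edgeR adjusted p = 1.02e-21). Itga1, which encodes a collagen-binding chain, was 21.8-fold higher (19.3 and 18.6 against 0.798 and 0.980 CPM, edgeR adjusted p = 1.23e-14). Itga2, another collagen-binding chain, and Itgb3, the vitronectin-binding partner of Itgav, were also higher, at 3.28 and 3.39 CPM for Itga2 and at 11.6 and 13.5 CPM for Itgb3, against 0.145 and 0.377 CPM and 1.81 and 2.41 CPM in MC38. Itga1, Itga2, Itga4, Itga8 and Itga9 were under 1 CPM in every MC38 library and passed the filter only through B16. They had to differ, so their p-values add no support.

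Known partners stood on opposite sides in some pairs and not in others. The Itgb4 chain is known to pair with that of Itga6 alone, and MC38 held more Itgb4 and less Itga6 while B16 held the reverse. Per kilobase, the MC38 knockdown libraries had 26.9 and 28.9 for Itgb4 against 5.42 and 5.13 for Itga6, and the B16 knockdown libraries had 0.697 and 0.558 against 27.97 and 28.3. The Itgb7 chain pairs with those of Itga4 and Itgae. Itga4 did not exceed 0.301 CPM in any MC38 library, and Itgae, outside the 37 genes, was at 2.71 to 4.43 CPM in MC38 and 1.31 to 2.24 CPM in B16. Itgav, whose chain pairs with several beta chains, was lower in B16 (207 and 219 CPM in MC38, 173 and 172 CPM in B16, log2 fold change -0.26, SE 0.07), as was its partner Itgb5 (-0.54, SE 0.09), while its partner Itgb3 was higher. Itgb1, the partner of both Itga3 and Itga4, was not called, nor were Itgb8 and Itga7, at -0.08 (SE 0.06), 0.35 (SE 0.25) and -0.44 (SE 0.25). Without B16 knockdown replicate 2, Itga7 was called as lower in B16 (-0.83, edgeR adjusted p = 0.0202).

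The 250 bases before the RefSeq starts of the chains with the largest differences are shown to put sequence beside these levels: Itga3 (both listed starts) and Itgb7 for MC38, Itga4 and Itga9 for B16. They are from the RefSeq table on GRCm38.p6, while the counts were made on GRCm39, and no measurement of binding or start use is part of these data. The Itga3 starts lie on the minus strand at chr11:95076715-95076964 and chr11:95069199-95069448, Itgb7 on the minus strand at chr15:102231936-102232185, Itga4 on the plus strand at chr2:79255176-79255425 and Itga9 on the plus strand at chr9:118711442-118711691. Capitals mark matches on either strand. The motifs searched were the GC box, spelled GGGCGG, the melanocyte-type M-box, spelled CATGTG, and the E-box, spelled CACGTG. Also searched were the CCAAT box, the AP-1 site with the letters TGANTCA, the interferon-gamma-activated site with the letters TTCNNNGAA, the TATA box with the letters TATAAA, and the CArG motif. None of these overlapped in the sequences shown.
Itga3, first start: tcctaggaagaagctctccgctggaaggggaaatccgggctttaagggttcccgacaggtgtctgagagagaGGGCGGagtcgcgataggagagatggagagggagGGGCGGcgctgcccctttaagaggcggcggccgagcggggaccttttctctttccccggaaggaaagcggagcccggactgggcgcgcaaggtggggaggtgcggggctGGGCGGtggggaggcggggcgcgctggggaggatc
Itga3, second start: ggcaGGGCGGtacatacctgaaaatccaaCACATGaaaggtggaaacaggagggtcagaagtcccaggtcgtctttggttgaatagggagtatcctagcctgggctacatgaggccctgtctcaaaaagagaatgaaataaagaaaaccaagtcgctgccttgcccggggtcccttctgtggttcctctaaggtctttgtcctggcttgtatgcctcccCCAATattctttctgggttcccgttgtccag
Itgb7: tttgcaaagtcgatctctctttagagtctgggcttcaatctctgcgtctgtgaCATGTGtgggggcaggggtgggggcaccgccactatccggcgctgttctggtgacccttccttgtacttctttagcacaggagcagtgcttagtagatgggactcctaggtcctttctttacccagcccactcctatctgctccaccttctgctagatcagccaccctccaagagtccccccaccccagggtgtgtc
Itga4: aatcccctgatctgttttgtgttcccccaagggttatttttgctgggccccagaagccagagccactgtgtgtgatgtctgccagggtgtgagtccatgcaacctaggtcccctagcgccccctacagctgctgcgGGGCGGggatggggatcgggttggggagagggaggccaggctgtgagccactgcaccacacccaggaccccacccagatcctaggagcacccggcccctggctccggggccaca
Itga9: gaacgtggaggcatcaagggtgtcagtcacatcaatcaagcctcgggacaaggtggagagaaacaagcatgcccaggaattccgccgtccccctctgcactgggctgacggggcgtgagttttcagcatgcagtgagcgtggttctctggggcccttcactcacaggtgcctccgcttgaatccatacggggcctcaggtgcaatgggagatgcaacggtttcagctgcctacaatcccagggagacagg
A GC box stood 3 times before the first Itga3 start and once before the second and before Itga4, and no motif was matched before Itga9. An M-box match stood before the second Itga3 start and before Itgb7, both high in MC38. Of 32817 promoters of this length in the table, 32.7% held a GC box, 12.3% an M-box and 7.01% an interferon-gamma-activated site. Of the members' 34 listed starts, from 28 genes, 17 held a GC box, 4 an M-box and 1, before Itga10, an interferon-gamma-activated site. A CArG motif, the site of serum response factor, was matched before Vcl, Fermt2 and Itgb6 and in 1.47% of all promoters. These matches are letters in a window and are not read as sites in use.

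Among adhesion proteins, Tns1, which encodes a tensin linking integrins to actin, was at 222 and 234 CPM in MC38 and at 30.1 and 35.4 CPM in B16 (log2 fold change -2.76, SE 0.08, edgeR adjusted p = 1.44e-21). Tgfb1i1, which encodes the paxillin relative Hic-5, was 8.17-fold lower in B16 (1.37 and 1.57 against 11.8 and 13.0 CPM). Bcar1, which encodes the docking protein p130Cas, was 2.97-fold lower (47.1 and 55.3 against 148 and 164 CPM, edgeR adjusted p = 4.95e-15). Parva, which encodes parvin, was 2.06-fold lower (85.8 and 85.4 against 179 and 184 CPM, edgeR adjusted p = 2.89e-13). Pxn and Vcl, which encode paxillin and vinculin, were lower by 1.96-fold to 2.003-fold, and Src by 1.72-fold. Talins went opposite ways: Tln2 was 2.11-fold higher in B16 (173 and 173 against 78.9 and 89.6 CPM, edgeR adjusted p = 4.25e-13) and Tln1 1.30-fold lower (396 and 413 against 498 and 584 CPM). Fermt2 was 1.79-fold higher, and Tns3, Zyx, Lims1 and Ptk2, the last encoding focal adhesion kinase, by 1.16-fold to 1.25-fold. The calls of Ptk2, Zyx and Lims1 were lost when 1 knockdown library was left out: replicate 1 of MC38 or of B16 for Ptk2 (edgeR adjusted p = 0.178 and 0.0509), replicate 1 of MC38 or 2 of B16 for Zyx (0.106 and 0.145), and replicate 2 of MC38 or 1 of B16 for Lims1 (0.0907 and 0.174).

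Wider lists are read against the 68.2% of all genes called. Of 28 tested integrin ligands, 18 were lower in B16 and 6 higher, a share of 85.7% called. Fbn1, which encodes fibrillin, was at 4.87 to 6.64 CPM in the B16 knockdown and 561 to 613 CPM in MC38, and Col1a2, a type I collagen chain, at 9.47 to 10.6 and 251 to 255 CPM. Of 37 other adhesion regulators, 12 were higher and 18 lower (81.1% called). Enah, a relative of Vasp, was at 122 to 126 CPM in B16 and 2.03 to 2.40 CPM in MC38. Nedd9, a relative of Bcar1, was at 0.305 to 0.435 and 57.1 to 57.9 CPM. Of 12 membrane partners, 5 were higher and 5 lower (83.3% called), with Cav1, which encodes caveolin, at 1.13 to 1.37 CPM in B16 and 231 to 240.1 CPM in MC38. The receptor gene Igf1r was at 36.7 to 38.6 and 129 to 145 CPM. Leukocyte and platelet integrin chains were low in both: of 7, 3 were tested, and all 3 (Itgb2, Itga2b and Itgae) were lower in B16, from at most 8.93 CPM.

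In MC38, the libraries with c30 were set against those of the knockdown alone. The labels do not say whether the knockdown cells carried an empty vector. The Sdc1 form and the making of its culture therefore cannot be told apart, for c30, for ect or for wild-type Sdc1 in B16. The beta chains Itgb4 and Itgb7, were lower and the alpha chain Itga3 higher, with smaller shifts in Itgb5 and 5 adhesion proteins. Of 28 members that passed the filter, 9 were called, 3 higher and 6 lower (edgeR adjusted p under 0.05), beside 7.75% of all 15031 genes tested, of which 3.3% were higher and 4.45% lower. That was 4 of 12 tested subunits and 5 of 16 tested adhesion proteins. The list was chosen with earlier results of these data known, so the share called is not read as an excess over all genes. The median log2 fold change was -0.16 over tested subunits, -0.05 over tested adhesion proteins and 0.00 over all genes, and no member differed 2-fold.

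**Figure D4:**
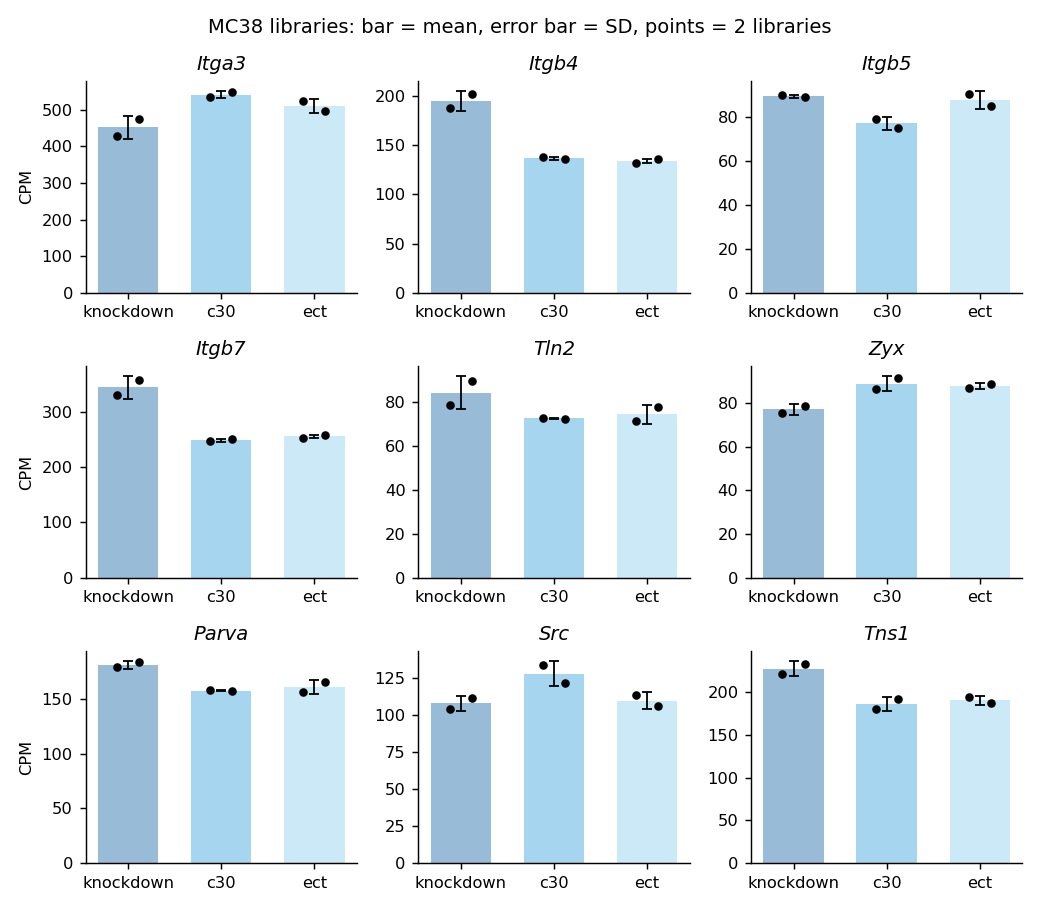
CPM of the 9 members called with c30 or ect in MC38, with bars for group means, lines for SD and points for both libraries, each axis from 0. Itgb4, Itgb7, Tns1, Parva and Tln2 are lower and Itga3 and Zyx higher in all c30 and ect libraries than in both knockdown libraries, and Itgb5 and Src stand apart from the knockdown with c30 but overlap it with ect.

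Itgb7 was at 329 and 358 CPM in the knockdown, 247 and 250 CPM with c30 and 253 and 258 CPM with ect. With c30 it was 1.38-fold lower (log2 fold change -0.46, SE 0.05, edgeR adjusted p = 2.41e-12). Itgb4 was at 188 and 202 CPM in the knockdown, 138 and 136 CPM with c30 and 132 and 136 CPM with ect. Both chains were thus lower in each of the 4 libraries than in either knockdown library. The Itgb4 difference with c30 was 1.42-fold (log2 fold change -0.51, SE 0.05, edgeR adjusted p = 4.87e-12). Itga3 was at 429 and 475 CPM in the knockdown, 535 and 548 CPM with c30 and 524 and 497 CPM with ect, and with c30 it was 1.202-fold higher (0.27, SE 0.04, edgeR adjusted p = 9.72e-06). Tns1, the tensin gene, went from 222 and 234 CPM to 181 and 192 CPM (-0.29, SE 0.05, edgeR adjusted p = 3.43e-05).

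The remaining calls with c30 held under fewer alternatives. Itgb5, whose chain binds vitronectin together with that of Itgav, went from 89.8 and 88.9 CPM to 79.2 and 74.8 CPM (-0.21, SE 0.06, edgeR adjusted p = 0.0227). Src, which encodes the kinase that partners focal adhesion kinase, rose from 104 and 112 CPM to 134 and 122 CPM (0.25, SE 0.06, edgeR adjusted p = 0.00231). Zyx, which encodes an actin-side protein of mature adhesions, rose from 75.3 and 78.7 CPM to 86.4 and 91.2 CPM (0.21, SE 0.06, edgeR adjusted p = 0.0218). Parva fell from 179 and 184 CPM to 158 and 157 CPM (-0.20, SE 0.05, edgeR adjusted p = 0.00865) and Tln2 from 78.9 and 89.6 CPM to 72.8 and 72.5 CPM (-0.21, SE 0.07, edgeR adjusted p = 0.0360). Groups did not overlap for any of these 5 genes, but this was also so for uncalled members such as Itga6 and Vcl. The share of all genes whose groups stand apart was not counted. Itga3, Itgb4, Itgb7 and Tns1 were called under each of 12 alternatives. The number called was 4 without c30 replicate 1, where Itgb5, Tln2, Zyx, Parva and Src lost the call, and 5 without c30 replicate 2, where Itgb5, Tln2, Zyx and Parva did.

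Members not called with c30 ran from -0.56 to 0.42 on the log2 scale, with the extremes in Itgb8 and Lpxn, both under 6 CPM. The abundant chains Itgb1, Itgav and Itga5 were among them, at -0.09 (SE 0.04), -0.03 (SE 0.05) and -0.13 (SE 0.06). So were Tln1, Ptk2, Pxn and Vcl, at -0.09 (SE 0.05), 0.02 (SE 0.06), 0.06 (SE 0.06) and -0.11 (SE 0.06). Of the wider lists, integrin ligands had 8 of 26 tested genes lower and 1 higher, with Col1a2 at -0.69 (SE 0.05) and Tgfbi at -0.49 (SE 0.05). Other adhesion regulators had 4 of 36 lower and 2 higher, with Nedd9 at -0.58 (SE 0.09), Sorbs3 at -0.22 (SE 0.06) and Pdlim7 at 0.41 (SE 0.10). Of 12 membrane partners, 2 were higher, the targeted gene Sdc1 and the urokinase receptor gene Plaur (0.45, SE 0.07), and 1 lower, the tetraspanin gene Cd81 (-0.33, SE 0.06). The summed level of 7 fibroblast and endothelial markers moved with the same groups: 145 and 154 CPM in the knockdown, 108 and 115 CPM with c30 and 110 and 104 CPM with ect, with 5 or 6 of 7 at 1 CPM or more and Kdr at 0.264 CPM or less. Nearly all of that sum came from Pdgfrb (66.3 to 97.7 CPM) and Pdgfra (30.7 to 48.7 CPM), and none of the other 5 exceeded 3.06 CPM. The 8 epithelial markers summed to 16.4 and 16.5 CPM in the knockdown, 13.04 and 10.3 CPM with c30 and 9.49 and 9.64 CPM with ect. The part of either list in the member differences was not tested.

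With ect, which is set against the same knockdown libraries as c30, 6 of 28 tested members were called, 2 higher and 4 lower. Among all 15031 genes 8.16% were called, 3.55% higher and 4.61% lower. The limit on how the list was chosen holds here as well. Itgb4 was 1.45-fold lower (-0.53 on the log2 scale, SE 0.05, edgeR adjusted p = 6.81e-13) and Itgb7 1.34-fold lower (-0.42, SE 0.05, edgeR adjusted p = 8.96e-11). Both were called under each of 12 alternatives. Tns1 fell to 194 and 187 CPM (-0.25, SE 0.05, edgeR adjusted p = 0.000362), and Parva to 157 and 166 CPM (-0.16, SE 0.05, edgeR adjusted p = 0.0438). Itga3 rose (0.19, SE 0.04, edgeR adjusted p = 0.00235) and so did Zyx, to 87.0 and 88.8 CPM (0.20, SE 0.06, edgeR adjusted p = 0.0255). The median log2 fold change was -0.09 over tested subunits, -0.03 over tested adhesion proteins and 0.00 over all genes. The call of Parva was lost in 7 of 12 alternatives, that of Zyx in 6, that of Itga3 in 3 and that of Tns1 in 1. Without ect replicate 1 the number called was 3, and Itga3 (edgeR adjusted p = 0.149), Zyx (0.120) and Parva (0.308) lost the call. Without knockdown replicate 1, Itga3 (0.127) and Zyx (0.198) lost it and Tln1 (0.000920) and Tln2 (0.0250) gained it as lower, as Tln1 (0.000504) did with c30. Integrin ligands had 7 of 26 lower and 2 higher, with Tgfbi at -0.57 (SE 0.05), Col1a2 at -0.53 (SE 0.05) and Col1a1 at -1.04 (SE 0.14). Other adhesion regulators had 3 of 36 lower and 1 higher, with Nedd9 at -0.50 (SE 0.09).

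**Figure D5:**
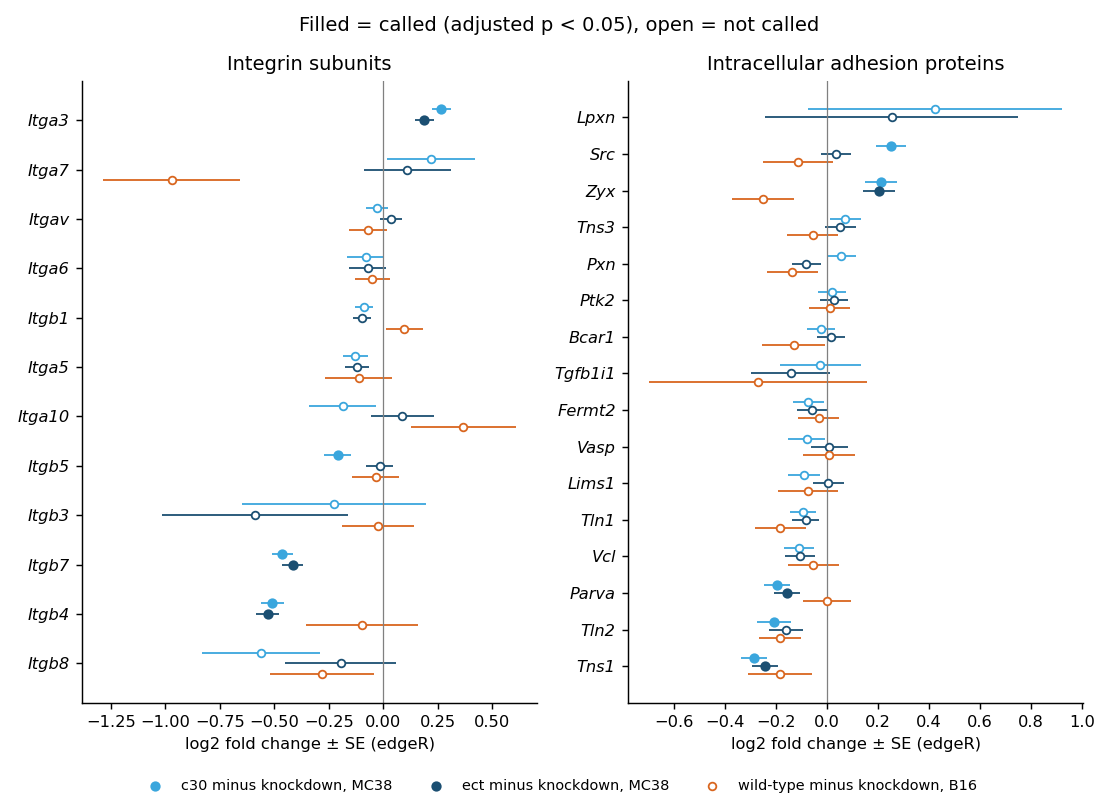
Log2 fold changes with SE of members tested in MC38, for c30 and ect against the MC38 knockdown and wild-type Sdc1 against the B16 knockdown, subunits left and adhesion proteins right on axes of different range; filled points were called. Itgb4 and Itgb7 lie lowest among called members with both forms, and no B16 point is filled.

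Set directly against each other, c30 and ect left no member called by edgeR, DESeq2 or limma-voom, beside 0.299% of 15031 genes by edgeR (0.133% higher and 0.166% lower with c30). At an unadjusted p under 0.05 edgeR had 3 members and 1310 genes. They were Src (0.21 higher with c30 on the log2 scale, 95% interval 0.10 to 0.33, edgeR adjusted p = 0.0915), Itgb5 (-0.19, interval -0.32 to -0.07, 0.233) and Pxn (0.14, interval 0.02 to 0.25, 0.446). For Itgb7 the interval was -0.14 to 0.05, so that a difference of more than 0.14 between the forms in either direction lies outside it. Src was called when only the 4 libraries compared were fitted (0.21, edgeR adjusted p = 0.0484).

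In B16 the libraries with wild-type Sdc1 were set against those of the knockdown alone. No member and no gene of 14336 tested was called by edgeR (0% called), nor by limma-voom. DESeq2 called 10 genes and no member. Sdc1 itself was tested and not called by edgeR, at 40.7 and 43.1 CPM in the knockdown and 71.1 and 56.9 CPM with the wild-type form. The lack of calls is therefore not read as a lack of effect of wild-type Sdc1. At an unadjusted p under 0.05 edgeR had 791 genes, 5.52% of those tested, and 2 of 30 members. Itga7, which encodes a laminin-binding chain of muscle, was at 3.82 and 6.44 CPM in the knockdown and 2.77 and 2.32 CPM with the wild-type form (log2 change -0.97, SE 0.31, edgeR adjusted p = 0.877). Tln2 was at 173 and 173 CPM and at 155 and 144 CPM (-0.19, SE 0.08, edgeR adjusted p = 0.891). In both genes the groups did not overlap, but this was also so for uncalled members with small changes, such as Vcl (-0.05, SE 0.10).

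The intervals of abundant subunits in B16 included 0 but reached changes as large as some called in MC38 (0.21 for Zyx with c30). Itgb1 was at 553 and 551 CPM in the knockdown and 560 and 598 CPM with wild-type Sdc1 (0.10, 95% interval -0.09 to 0.28), and Itga6 at 252 and 255 and at 242 and 239 CPM (-0.05, interval -0.22 to 0.12). The median log2 fold change was -0.04 over 15 tested subunits, -0.11 over 15 tested adhesion proteins and 0.00 over all genes. Wild-type libraries differed from each other more than those of any other group: the chi-square per gene between both libraries was 20.01, against 3.79 to 6.27 elsewhere. Without wild-type replicate 1, Tln1 (-0.34), Zyx (-0.44), Tln2 (-0.23), Src (-0.36) and Itga7 (-1.10) were called, all as lower. Without wild-type replicate 2, only Lims1 was called among members (-0.27). Both fits leave 1 wild-type library and also called many genes outside the list. These calls are therefore not read as a result about the members. Replicate 2 was the lower library in Tln1 (313 against 387 CPM), Zyx (64.7 against 83.9 CPM) and Src (46.5 against 64.0 CPM), and Zyx and Tln1 in replicate 1 lay within 10 CPM of a knockdown library.

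Zyx and Itgb1 were picked because their groups did not overlap within either line and differed in opposite directions. Groups of 2 libraries can stand apart without a real difference, and the share of all genes meeting this rule was not counted. Itgb1 was not called within either line, and Zyx was not called in B16. Zyx was 84.8 and 95.4 CPM in the B16 knockdown and 83.9 and 64.7 CPM with wild-type Sdc1, while it was higher with c30 and ect in MC38. The difference between the B16 and c30 effects was -0.46 (SE 0.13, edgeR adjusted p = 0.1499) and that between the B16 and ect effects -0.45 (SE 0.13, edgeR adjusted p = 0.146). For Itgb1 they were 0.18 (SE 0.09, edgeR adjusted p = 0.465) and 0.19 (SE 0.09, edgeR adjusted p = 0.419). Of the 25 members tested within both lines, 0 were called in either contrast, by edgeR over 16877 genes, of which 0.284% and 0.486% were. At an unadjusted p under 0.05 there were 5 and 4 of these members. The share of all genes at that threshold was not counted, so these numbers are not read as an excess. The forms re-expressed also differ between the lines, so line and form cannot be told apart.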

How the data were processed

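Libraries of messenger RNA were read as Illumina paired ends, per the labels. Raw counts per gene, whole numbers not normalized by the authors, are what the deposited table gives for 10 libraries; all columns were used. Build GRCm39 and the tools DESeq2, featureCounts, HTSeq, HISAT2 2.0.5 and Trimmomatic are named in the submitters' processing notes. Annotation release, strand setting and the handling of reads over shared exons are not given in the sources used here. Symbols were matched by Ensembl identifier for 51884 of 57180 Ensembl rows. Exon lengths and shared bases are from GENCODE vM21 (GRCm38), since no annotation of the files' build was used.

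Genes were tested in edgeR 4.0.16 (R 4.3.3) with filterByExpr by group, TMM normalization, robust dispersions and the quasi-likelihood test, 2-sided, with Benjamini-Hochberg adjustment over all genes tested. The 3 MC38 comparisons shared a fit of 6 libraries (common biological coefficient of variation 4.84%), B16 used 4 (8.68%) and the lines 10 (6.65%). Intervals of fold changes are 95% intervals of that fit. CPM are of the library total, and fold changes follow TMM library sizes, so both can differ slightly. The script was tested on simulated counts. Members and lists were chosen with earlier results of these data known. The rule for naming was every called member within a line and, between lines, the 12 with the smallest adjusted p; other genes whose fold changes or levels are printed singly, such as Nedd9 between lines, were picked after their values were seen. Alternatives used DESeq2 1.42.0 and limma-voom (limma 3.58.1), other filters and size factors, a replicate block, single libraries left out and other sets of libraries. The contrast between effects in both lines and the Poisson ratios were chosen after seeing the data.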

Additional observations from a re-analysis of the deposited data

How the results depend on the processing

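Fitting all 10 libraries together left 4 members called with c30 and 2 with ect, while fitting only the 4 libraries compared called 1 member, Src, between c30 and ect; the cause was not tested. Leaving out single libraries gave 4 to 8 members with c30, 3 to 6 with ect, 0 to 5 in B16 and 26 to 28 between lines. An arm left with 1 library was assumed to vary like the others. Called members kept their direction in every alternative run: of 108 values with c30, 85 stayed past the threshold, as did 55 of 72 with ect and 300 of 306 between lines. With DESeq2 the counts were 6 with c30 and 4 with ect, beside 519 and 596 genes called in all, where edgeR called 1165 and 1227. With the replicate number as a block they were 9, 6, 0, 0 and 28 (c30, ect, c30 against ect, B16, lines), the values without it. Equal numbers did not deviate together within a line (correlations -0.05 to 0.02), so the numbers were not taken as pairs. In B16 all 4 libraries gave 0 genes called, against 1295 without wild-type replicate 1 and 326 without replicate 2. Low levels limit the precision: for Itgb8 with c30 the 95% interval ran from -1.10 to -0.03.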
